A study of Mus musculus with 12 samples.

Results

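The change in gene expression between 1 and 2 months of age was measured in hearts of cardioGRMRdKO mice, whose cardiomyocytes are the target of a recombinase that removes both corticosteroid receptors. The comparison sets 3 hearts taken at 2 months against 3 taken at 1 month, chosen by their genotype and age labels. These are 6 of the 12 arrays of the study, and the remaining 6 are hearts of dflox mice at the same ages, 3 per age, which give the age change in control littermates. All mice were C57BL/6 males and carried floxed alleles of the glucocorticoid receptor (GR) and the mineralocorticoid receptor (MR). The cardioGRMRdKO mice also carried Cre driven in cardiomyocytes by the αMHC promoter, and the dflox controls were Cre negative. The age change within cardioGRMRdKO hearts, called knockout hearts below, compares animals that all carried Cre. A difference between the age changes of the genotypes could come from Cre or from receptor loss, and these cannot be told apart here. RNA was taken from whole hearts, so cell types that keep both receptors contributed to every value, and fewer cells of a type cannot be told apart from less RNA per cell. The design gives group sizes in mice, and 1 array was taken as 1 animal.

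The weeks after weaning complete the change from a growing to an adult heart. Cardiomyocytes have by then largely left the cell cycle, fibroblasts make less fibrillar collagen and elastic fibre protein as the matrix matures, and immune cells continue to populate the tissue. GR and MR are nuclear receptors for glucocorticoids and aldosterone, and in cardiomyocytes they act on genes of contraction, calcium handling, metabolism and stress.

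Levels are given on a log2 scale on which 0 is the 75th percentile of intensity of an array, so levels are compared between hearts for 1 gene and not between genes. Between 63.7% and 71.9% of the spots for transcripts exceeded background on an array by the criterion of the scanner software, and the number of hearts limits the precision. A gene was called when limma gave a Benjamini-Hochberg adjusted p under 0.05 over all 18258 genes tested. Every adjusted p below comes from limma and is two-sided. The 12 arrays lay on 3 slides, and each slide held 1 knockout heart of each age, so the age change could also be read within a slide. Of the dflox hearts, only 1 of each age shared a slide (slide 1), the other 1-month hearts being on slide 2 and the other 2-month hearts on slide 3.

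Nr3c1, which encodes GR, had usable spots on its brightest probe in 2 of the 3 knockout hearts at 1 month, with levels of 1.35 and 1.51. The 3 knockout hearts at 2 months were at 1.44, 1.15 and 1.18, and every dflox heart with a usable spot was between 2.05 and 2.51. The knockout hearts were therefore below the dflox hearts at both ages, and their ages overlapped, with a log2 difference of −0.17 (SE 0.154, adjusted p = 0.752). Its 3 other probes above background gave 0.62, 0.26 and 0.19, so the probes differed in sign around a small change. Nr3c2, which encodes MR, was dim, at −2.91, −3.76 and −3.65 at 1 month and −3.66, −3.03 and −4.48 at 2 months in knockout hearts (difference −0.29, SE 0.499, adjusted p = 0.906). The exons removed by Cre are not given in the sources used here, so it is not known whether either probe lies in the deleted part.

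In knockout hearts 69 of 18258 genes were called between the ages (0.378%). Of these, 35 rose (0.192% of genes tested) and 34 fell (0.186%). By the fitted difference, 25 of the rises and 14 of the falls were at least 2-fold. The largest fitted fall, of a transcript without a current symbol, was well above background in 0 of 3 hearts at 2 months. Against the lowest signal well above background it was at least 1.92-fold. The genes that fell included structural proteins of the extracellular matrix, histones, the fetal growth factor Igf2 and a potassium channel subunit. The genes that rose included MHC class II genes, a ketone body enzyme, a fatty acid activating enzyme, a muscle acetylcholine receptor subunit and the stress cytokine Gdf15. In all, 57 of the 69 carried a current gene symbol. Over all genes the median log2 difference was −0.02, 45.8% of genes were above 0, and 2271 genes (12.4%) had an unadjusted p under 0.05. Every count of list members called or above 0 is to be read against these shares.

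All 69 called genes had knockout hearts that did not overlap between the ages, as did 3295 genes in all (18.0%). This fixes their sign within a slide and with any 1 heart left out, so neither is a further check. Their median size was 0.91, 1.15 and 1.11 on the log2 scale in slides 1, 2 and 3. The count depended on the processing: 29 genes were called with median centring, 34 with normexp background correction, 13 with no filter on dim probes and 0 with the 6 knockout arrays fitted alone, where 1968 had an unadjusted p under 0.05. Which genes passed the threshold depended on single hearts. Leaving out knockout 1-month replicate 1 or 3 left 9 or 4 calls, and leaving out knockout 2-month replicate 1, 2 or 3 left 21, 12 or 24. Leaving out dflox hearts, which enter the shared estimate of spread, left 44 calls without 1-month replicate 1, 15 without 1-month replicate 3, and 43, 39 and 41 without 2-month replicates 1, 2 and 3. Kcne1, Mfap2, Acsl6 and Bdh1 were the 4 genes called in each of the 12 fits that left out 1 heart, and the median over the 69 was a call in 3 of the 12.

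**Figure D1:**
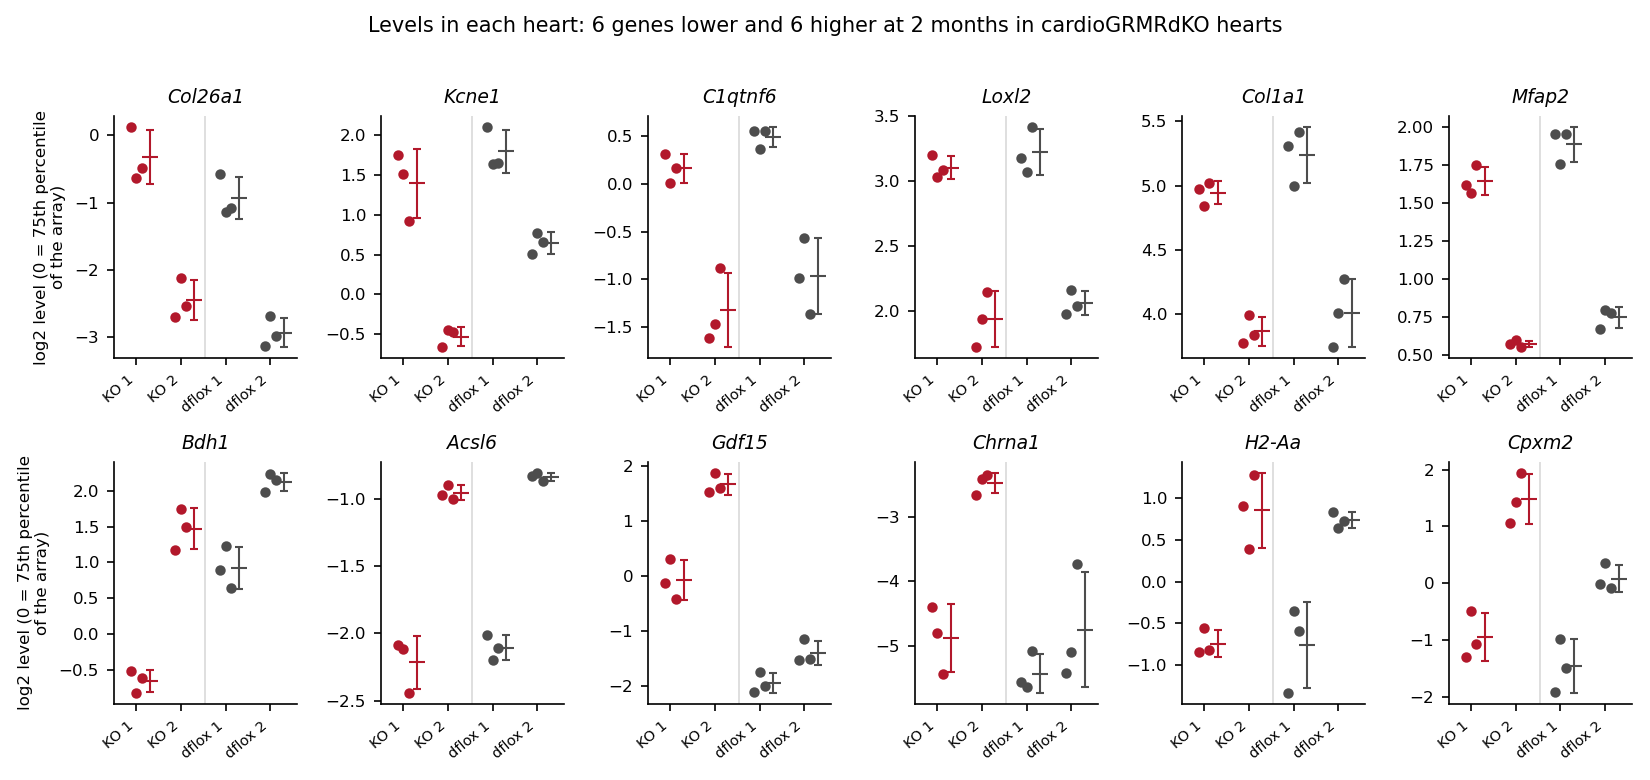
Log2 level in each heart (0 = the array's 75th percentile) for 6 genes that fell (top row) and 6 that rose (bottom row) between 1 and 2 months in cardioGRMRdKO hearts (KO, red), beside dflox hearts (grey). Points are hearts, and bars show the mean and SD of 3 hearts. In all 12 genes the 3 knockout hearts at 2 months lie apart from the 3 at 1 month, as for Mfap2, at 0.57, 0.59 and 0.55 against 1.62, 1.56 and 1.75.

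Among genes of the extracellular matrix, Mfap2, Loxl2, Col1a1 and Col5a1 fell. These were 4 of the 43 tested genes of collagens and matrix, against 0.186% of all genes called lower. Of the 43, 8 were above 0, against 45.8% of all genes, and the median difference was −0.45 against −0.02 over all genes. The mean level of the list was 2.17, 2.11 and 2.19 at 1 month and 1.63, 1.71 and 1.85 at 2 months, so the ages did not overlap. Mfap2, a glycoprotein of elastic microfibrils (probe on chromosome 4, 140394340 to 140394399, build mm7 of the file headers), stood at 1.62, 1.56 and 1.75 at 1 month and 0.57, 0.59 and 0.55 at 2 months, a fall of 2.10-fold (log2 difference −1.07, SE 0.096, adjusted p = 0.00276). A further Mfap2 probe gave −1.01.

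Loxl2, which cross-links collagen and elastin, fell 2.25-fold, from 3.20, 3.03 and 3.08 to 1.72, 1.94 and 2.15 (log2 difference −1.17, SE 0.133, adjusted p = 0.00749). Col1a1, the major chain of fibrillar collagen I (chromosome 11, 95060800 to 95060859), fell from 4.97, 4.84 and 5.02 to 3.78, 3.99 and 3.84 (−1.08, SE 0.154, adjusted p = 0.0274). For both genes the hearts of each age lay close together and the ages were far apart. Other Col1a1 probes gave −0.69 and −1.25. Col5a1, a chain of collagen V that sets fibril diameter, fell by 0.74 (SE 0.106, adjusted p = 0.0274). Col3a1, of collagen III, went from 5.89, 5.69 and 6.09 to 4.80, 5.10 and 4.88 without passing the test (−0.96, adjusted p = 0.117), although it passed with normexp background correction (−0.94) and as the mean of its probes (−1.09).

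Several other called genes encode secreted or matrix proteins that the list did not hold. Col26a1, a collagen-family gene, showed the largest called fall among genes with a symbol, from 0.13, −0.63 and −0.48 to −2.70, −2.12 and −2.53. That is 4.35-fold (log2 difference −2.12, SE 0.239, adjusted p = 0.00749). Fstl1, a follistatin-like glycoprotein made by mesenchymal cells and one of the fibroblast markers, fell from 4.42, 4.32 and 4.33 to 3.39, 3.56 and 3.49 (−0.88, adjusted p = 0.00749). C1qtnf6, a secreted C1q and TNF related protein, fell 2.81-fold (−1.49, adjusted p = 0.0339). Stc2, a secreted glycoprotein, fell by 0.90 (adjusted p = 0.0274), and Emilin2, an elastin-associated protein, by 0.66 (adjusted p = 0.0423). Beside these, 2 of 20 fibroblast markers fell (Col1a1 and Fstl1), against 0.186% of all genes called lower. Of the 20, 4 were above 0, against 45.8% of all genes, and the median was −0.23. The mean level of the fibroblast markers was 3.73 to 3.88 at 1 month and 3.37 to 3.54 at 2 months, and its part in the matrix result was not tested. Without knockout 2-month replicate 3, the median of the fibroblast markers was −0.13 and that of the matrix list −0.54.

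**Figure D2:**
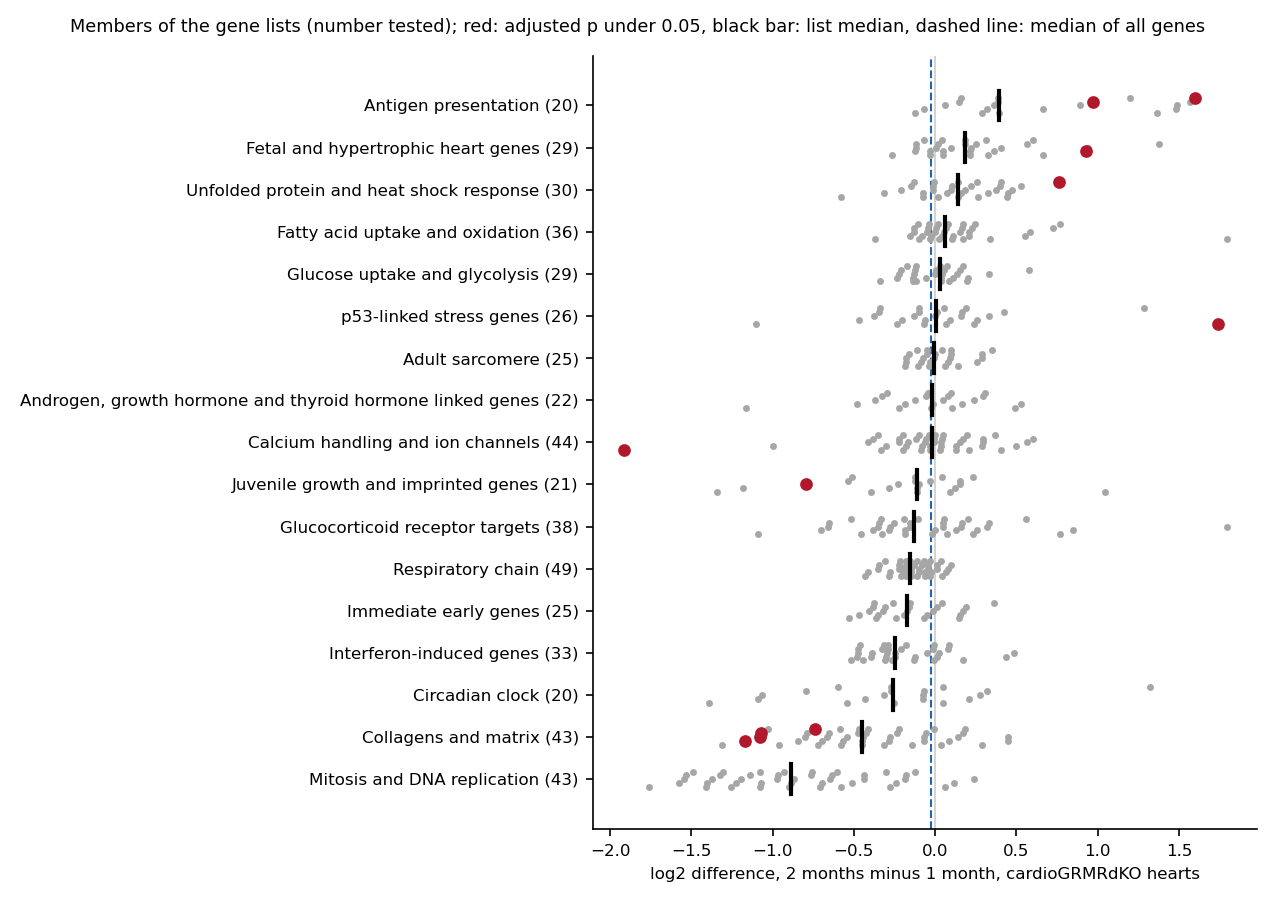
Log2 difference (2 months minus 1 month, cardioGRMRdKO hearts) of each tested member of 17 gene lists, with the number tested in brackets. Red points passed the adjusted p threshold, black bars are list medians and the dashed line is the median of all genes at −0.02. The mitosis list (median −0.89) and the matrix list (−0.45) lie furthest to the left, and antigen presentation (0.39) furthest to the right.

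Genes of mitosis and DNA replication were lower at 2 months as a list without any single call. Of 43 tested, 40 were below 0, the median was −0.89, and in 22 the ages did not overlap, against 18.0% over all genes. The mean level of the list was −0.40, −1.36 and −0.62 at 1 month and −1.68, −1.59 and −1.61 at 2 months. The 1-month hearts thus differed widely among themselves, with replicate 2 nearest to the 2-month hearts. That heart also stood apart in erythroid markers, with a mean of 0.34 against 2.48 and 2.52 in the other 1-month hearts. Neutrophil markers were spread over all the 1-month hearts, at −1.01, −4.58 and −3.30 in replicates 1, 2 and 3. The 2-month hearts were at 1.38 to 2.45 for erythroid and −2.25 to −1.75 for neutrophil markers. The part of blood cells in the mitosis values was not tested. Mki67, a marker of cycling cells, was at 1.78, 0.32 and 1.19 and then at −0.56, −0.12 and −0.28 (−1.41, SE 0.339, adjusted p = 0.115). Top2a, the topoisomerase of replicating chromosomes, gave −1.08 (adjusted p = 0.323) with overlapping ages. Bub1 of the spindle checkpoint gave −1.76 (adjusted p = 0.093), cyclin B2 (Ccnb2) −1.54 (0.0812) and survivin (Birc5) −1.41 (0.0888). Without knockout 1-month replicate 2, Bub1 (−2.16), Ccnb2 (−1.93) and Mki67 (−1.80) were called. Because that heart was the 1-month heart nearest to the 2-month hearts, leaving it out enlarges these differences. Those calls therefore add no support.

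The following 3 called genes are on no list fixed here. H2ac4, a replication-dependent histone H2A, fell from −2.05, −3.20 and −2.56 to −4.57, −4.42 and −4.50 (log2 difference −1.90, SE 0.290, adjusted p = 0.0342). With normexp it gave −0.95 and did not pass. H1f4, a linker histone, fell from 0.20, −0.05 and 0.36 to −0.79, −0.68 and −0.95 (−0.97, SE 0.129, adjusted p = 0.0231). Both genes belong to families of near-identical copies, so their probes can read relatives. Cdk6, a kinase that drives entry into the cell cycle, fell by 0.80 (adjusted p = 0.0355).

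Among 21 tested juvenile growth and imprinted genes 1 was called, against 0.186% of all genes called lower. Igf2, the fetal insulin-like growth factor, fell from 3.02, 2.88 and 3.05 to 2.21, 2.38 and 1.97 (log2 difference −0.79, SE 0.125, adjusted p = 0.0355). Its ages were separate, as in all 69 called genes, and it was called in 1 of the 12 fits that left out a heart. The list as a whole had 7 members above 0, against 45.8% of all genes, and a median of −0.12. Mirg, a noncoding RNA of the imprinted Dlk1 and Meg3 cluster that is not on the list, fell from −4.27, −4.60 and −4.42 to −5.63, −5.63 and −5.87 (−1.28, SE 0.174, adjusted p = 0.0256). It was well above background in 2 of the 3 hearts at 2 months, and with normexp it gave −0.44 and did not pass.

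**Figure D3:**
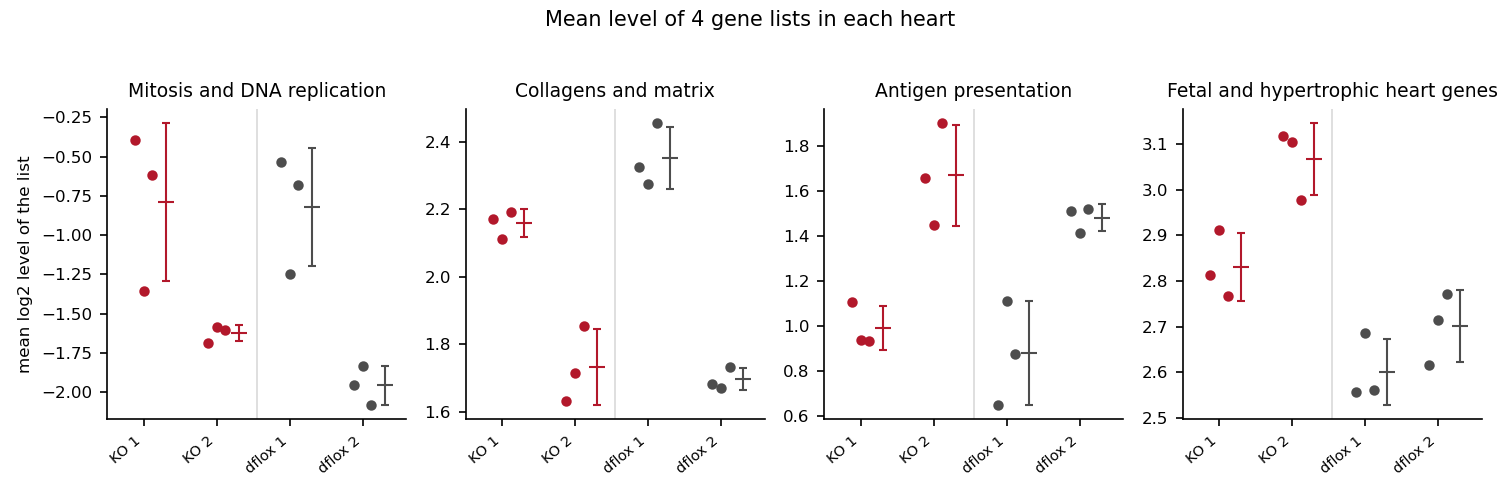
Mean log2 level of 4 gene lists in each heart, over members with a value on all 12 arrays, for cardioGRMRdKO (KO, red) and dflox (grey) hearts at 1 and 2 months; bars show mean and SD of 3 hearts. The matrix list goes from 2.11 to 2.19 down to 1.63 to 1.85 in knockout hearts, and the antigen presentation list from 0.93 to 1.11 up to 1.45 to 1.90.

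Of 20 tested genes of antigen presentation, H2-Aa and H2-DMb1 rose, against 0.192% of all genes called higher, 18 were above 0 and the median was 0.39. The median was 0.79, 0.49 and 0.03 within slides 1, 2 and 3. MHC class II molecules carry peptides to CD4 T cells and are made by dendritic cells, B cells and activated macrophages rather than cardiomyocytes. H2-Aa, the alpha chain of the I-A molecule (chromosome 17, 32362310 to 32362369, mm7), rose from −0.85, −0.56 and −0.82 to 0.90, 0.38 and 1.28. That is 3.03-fold (log2 difference 1.60, SE 0.267, adjusted p = 0.042), and a further probe gave 1.53. H2-DMb1, a chain of the molecule that loads peptides onto class II, rose from −0.51, −0.50 and −0.47 to 0.64, 0.35 and 0.44 (0.97, SE 0.146, adjusted p = 0.0327).

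The remaining class II genes, singled out here after their values were seen, had every 2-month heart above every 1-month heart without passing the test. Over all genes 18.0% did not overlap in either direction, but because of that choice the comparison is a description. The log2 difference was 1.36 for H2-Ab1 (adjusted p = 0.0612), 1.48 for H2-Eb1 (0.0896), 1.20 for H2-Oa (0.157) and 0.66 for H2-DMa (0.145). It was 1.49 for the invariant chain Cd74 (0.115) and 0.89 for Ciita, the coactivator of class II transcription (0.342). H2-Ob was well above background in 0 of 3 hearts at 1 month and 3 of 3 at 2 months, which makes it at least 2.42-fold higher (measured means −6.09 and −4.52, adjusted p = 0.137). Its p and the separation of its ages rest on 1-month values that were not well above background. With H2-Aa and H2-DMb1 these are 9 genes with a median of 1.36 (1.28 with H2-Ob at its bound) and within-slide medians of 1.65, 1.32 and 0.96. The 11 other members, of MHC class I and peptide processing, had a median of 0.29, 0 calls, and within-slide medians of 0.64, 0.31 and −0.09. The class II family contains related genes whose probes may read each other.

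Promoter sequence is shown for the class II genes because they moved together and are known to share a module of short elements upstream of the start. The windows below run from 110 to 21 bases before the start, 5′ to 3′ on the strand of the gene, from RefSeq on GRCm38.p6. Capitals mark GATTGG, which holds the reverse complement of the CCAAT box that forms the Y element, and GCAAC, a part of the X element.
H2-Aa, chr17:34287844-34287933, minus strand: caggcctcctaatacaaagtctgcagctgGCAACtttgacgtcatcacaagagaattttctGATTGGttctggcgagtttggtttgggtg
H2-Eb1, chr17:34305757-34305846, plus strand: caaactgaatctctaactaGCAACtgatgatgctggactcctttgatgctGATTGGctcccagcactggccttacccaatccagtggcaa
H2-Ob, chr17:34238795-34238884, plus strand: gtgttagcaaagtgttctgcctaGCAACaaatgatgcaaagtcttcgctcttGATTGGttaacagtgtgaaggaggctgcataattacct
H2-Oa, chr17:34092269-34092358, plus strand: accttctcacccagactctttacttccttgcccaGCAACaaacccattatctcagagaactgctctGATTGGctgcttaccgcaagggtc
H2-DMb1, chr17:34153081-34153170, plus strand: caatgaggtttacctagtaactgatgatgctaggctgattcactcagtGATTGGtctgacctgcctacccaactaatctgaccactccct

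GATTGG began 49, 60, 58, 44 and 62 bases before the start in H2-Aa, H2-Eb1, H2-Ob, H2-Oa and H2-DMb1. In the first 4 of these, GCAAC preceded it on the same strand with 27, 26, 24 and 27 bases between them. Of 32851 promoters of 300 bases in the same table, 16.1% held GATTGG on either strand and 35.2% held GCAAC, and the motifs do not overlap each other. Both together on the strand of the gene, 20 to 30 bases apart, a spacing chosen after the class II windows had been read, stood in 33 promoters (0.1%). Of 8 genes looked up (the H2 genes above and Cd74), 6 had an entry, and neither H2-DMa entry showed the pair. A match of letters is a description and not evidence of binding.

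Some further called genes are best known from immune cells, and they were picked out after their values were seen. Igh-1a, an immunoglobulin heavy chain entry under the name in the file, rose from −4.84, −3.46 and −3.80 to −1.84, −1.72 and −1.14 (5.52-fold, adjusted p = 0.0355), but its other probe gave 0.97. Klra10, of the Ly49 receptors of NK cells, rose by 0.90 (adjusted p = 0.0327), and near-identical relatives may share its probe. Gpr171, a receptor of lymphocytes, rose by 0.88 (adjusted p = 0.0429) and S1pr5, a sphingosine phosphate receptor of NK cells, by 0.71 (adjusted p = 0.0342). Under alternatives other than leaving out a heart, the smallest rise was 0.12 for Gpr171, 0.31 for S1pr5 and 0.45 for Klra10. Gpr171 was dim and was called in 0 of the 12 fits that left out a heart. Pla2g2d, a secreted phospholipase, rose from −3.91, −3.51 and −3.48 to −2.45, −2.02 and −2.20 (log2 difference 1.41, SE 0.200, adjusted p = 0.0274), and with normexp by 0.76 without passing. Cxcl14, a chemokine, rose 2.64-fold from 1.02, 1.91 and 1.18 to 2.82, 2.94 and 2.55 (adjusted p = 0.0355). Pycard, the adaptor of inflammasomes, fell by 0.69 (adjusted p = 0.0484). Of 19 tested markers of T, B and NK lymphocytes 16 were above 0, against 45.8% of all genes. Of them 0 were called, and the median was 0.56 (0.30 without knockout 2-month replicate 3). Their mean level was −2.74, −2.74 and −2.82 at 1 month and −2.52, −2.33 and −1.92 at 2 months. Of 23 macrophage markers, 7 were above 0 with a median of −0.09. The part of these cells in the class II result was not tested. Interferon-induced genes had 26 of 33 members below 0, a median of −0.25 and 0 calls, with 12 of 33 lower without overlap against 18.0% in either direction over all genes.

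Among genes of calcium handling and ion channels, 1 of 44 was called, against 0.378% of all genes, and the median was −0.02. Kcne1, the beta subunit that slows the delayed rectifier potassium channel (chromosome 16, 92401009 to 92401068), fell 3.78-fold. It was at 1.75, 1.51 and 0.92 at 1 month and −0.66, −0.45 and −0.47 at 2 months (log2 difference −1.92, SE 0.207, adjusted p = 0.00749). Every 2-month heart was far below the lowest 1-month heart. Kcna5, a voltage-gated potassium channel, gave −0.999 (adjusted p = 0.232). Ryr2, the calcium release channel, gave 0.03, and Pln, the regulator of the calcium pump, 0.05 (adjusted p = 0.959 and 0.946). Aqp4, a water channel, fell from −2.08, −2.42 and −2.58 to −3.53, −3.83 and −3.31 (−1.20, SE 0.182, adjusted p = 0.0342).

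Chrna1 and Vgll2, genes better known from skeletal muscle, were among the called rises. Chrna1, the alpha subunit of the muscle acetylcholine receptor, rose from −4.40, −4.80 and −5.44 to −2.66, −2.42 and −2.36 (5.29-fold, log2 difference 2.40, SE 0.401, adjusted p = 0.042). With normexp the difference was 1.20 and still passed, and it was called in 2 of the 12 fits that left out a heart. Vgll2, a TEAD cofactor of skeletal muscle, was well above background in 0 of the 3 hearts at 1 month and all 3 at 2 months. It was at least 3.17-fold higher at 2 months against the lowest signal well above background on the 1-month arrays (measured means −6.84 and −4.18, adjusted p = 0.0274). The p rests on 1-month values below background, and the gene passed the filter on dim probes only through the knockout 2-month hearts. That p therefore adds no support to the rise. With normexp the difference was 0.48 and did not pass. Tmem35a, a chaperone of neuronal acetylcholine receptors, fell from 1.23, 1.26 and 1.41 to 0.47, 0.41 and −0.003 (−1.01, adjusted p = 0.0449). Of the skeletal muscle markers, 8 of 15 tested were above 0, 0 were called, and the median was 0.04.

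Of 29 fetal and hypertrophic heart genes 1 was called, against 0.192% of all genes called higher. Of the 29, 22 were above 0, against 45.8% of all genes, and the median was 0.18. Rcan1, an inhibitor of calcineurin that calcineurin itself induces, rose from 2.23, 2.53 and 2.35 to 3.27, 3.47 and 3.15 (log2 difference 0.93, SE 0.15, adjusted p = 0.0355). Acta1, skeletal alpha actin, was at 5.18, 5.86 and 5.14 and then at 6.64, 6.66 and 7.02 without passing the test (1.38, SE 0.329, adjusted p = 0.115). It was called in 1 of the fits that left out a heart, that without dflox 1-month replicate 2. Myh7, the slow myosin heavy chain, was at 7.11, 7.39 and 7.28 at 1 month and 7.73, 7.55 and 7.05 at 2 months, with overlapping ages (0.18, adjusted p = 0.772). Nppa gave 0.05 and Nppb 0.32, and neither natriuretic peptide passed the test (adjusted p = 0.972 and 0.742). The 25 adult sarcomere genes held 0 calls and lay between −0.19 and 0.35, with Myh6, the fast myosin, at −0.05.

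Metabolic lists held 0 calls. The median was 0.06 for 36 genes of fatty acid uptake and oxidation, 0.03 for 29 of glucose uptake and glycolysis, and −0.15 for 49 of the respiratory chain, of which 42 were below 0. The respiratory chain median was −0.50 within slide 1 and 0.05 and 0.02 within slides 2 and 3. Knockout 2-month replicate 3, on slide 1, had the lowest mean of these genes at 6.42, against 6.77 to 6.93 in the other 5 knockout hearts. Its array also had the highest 75th percentile of intensity, 1067.8 against 662.8 to 792.2 in the other knockout arrays. The part of array intensity in these levels was not tested. Enzymes outside those lists were called. Bdh1, which oxidises the ketone body beta-hydroxybutyrate (chromosome 16, 31131721 to 31131780), rose 4.36-fold, from −0.52, −0.82 and −0.61 to 1.18, 1.74 and 1.50 (log2 difference 2.12, SE 0.181, adjusted p = 0.00276). Its second probe gave 2.20.

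Acsl6, which activates long-chain fatty acids (chromosome 11, 54317906 to 54317965), rose from −2.09, −2.11 and −2.44 to −0.97, −0.89 and −0.999. The difference was 1.26 (SE 0.111, adjusted p = 0.00276). Its other 3 probes gave 1.50, 0.79 and 1.365. They were well above background in 3, 1 and 0 of the 3 knockout hearts at 1 month, so the last 2 values rest on signal near background. Gsta1, a glutathione transferase, rose 2.49-fold from −1.68, −1.28 and −1.39 to 0.20, −0.19 and −0.41 (adjusted p = 0.0274), although near-identical family members may share its probe. Hacd1, an enzyme of very long chain fatty acid synthesis, fell by 0.60 (adjusted p = 0.0355).

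Stress genes contributed single calls. Gdf15, a cytokine induced by cellular stress (chromosome 8, 69084712 to 69084771), rose 3.34-fold, from −0.12, 0.31 and −0.41 to 1.52, 1.88 and 1.60 (log2 difference 1.74, SE 0.194, adjusted p = 0.00749). It was the only call among 26 p53-linked stress genes, whose median was 0.005. Hsph1, a heat shock protein of the Hsp110 family, rose from 2.75, 2.82 and 2.83 to 3.57, 3.71 and 3.42 (0.76, SE 0.109, adjusted p = 0.0274) and was the only call among 30 genes of the unfolded protein and heat shock responses (median 0.14). Arc, an activity-regulated cytoskeletal gene, rose 2.99-fold (1.58, SE 0.250, adjusted p = 0.0355), while the 25 immediate early genes tested, which do not include it, had a median of −0.17 and 0 calls.

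Of 38 known GR targets, 16 were above 0, 0 were called and the median was −0.13. Per1, a clock gene under glucocorticoid control, went from 1.18, 0.79 and 0.54 to 0.92, −0.93 and −0.76 (−1.09, SE 0.495, adjusted p = 0.406). Fkbp5 gave −0.33, Tsc22d3 −0.38, Sgk1 −0.16 and Klf15 0.05, each with an adjusted p of 0.453 or more. A further Fkbp5 probe, above background in all 6 hearts, gave −1.27, and another −0.17. The clock list had a median of −0.26, with 0 of 20 called, and the list linked to androgen, growth hormone and thyroid hormone a median of −0.02, with 0 of 22 called.

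Further named rises were Cpxm2, a carboxypeptidase-like secreted protein (5.42-fold, from −1.30, −0.48 and −1.08 to 1.06, 1.43 and 1.95, adjusted p = 0.0134), and Ppp1r1c, a regulatory subunit of protein phosphatase 1. Ppp1r1c rose 5.11-fold (log2 difference 2.35, SE 0.291, adjusted p = 0.0134). It was well above background in 2 of the 3 hearts at 1 month and in 0 dflox hearts. The gene thus passed the filter on dim probes only through the knockout 2-month hearts, so its p adds no support to the rise. With normexp the difference was 0.98 and did not pass. 7530428D23Rik, an uncharacterised transcript, rose 3.95-fold (log2 difference 1.98, adjusted p = 0.0449), and with normexp by 1.20 without passing. Lman1l, a lectin related to a cargo receptor, rose by 1.36 (adjusted p = 0.042). Lrrcc1, a centrosomal protein, rose by 1.24 (adjusted p = 0.00749), but its 2 other probes gave −0.19 and 1.39. As the mean of its probes (0.81) or with normexp (0.68) it did not pass. Further falls were Sdk1, an adhesion protein (−1.11, adjusted p = 0.0449, and −0.42 without passing under normexp), and D630033O11Rik, an uncharacterised transcript (−1.07, adjusted p = 0.00749).

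**Figure D4:**
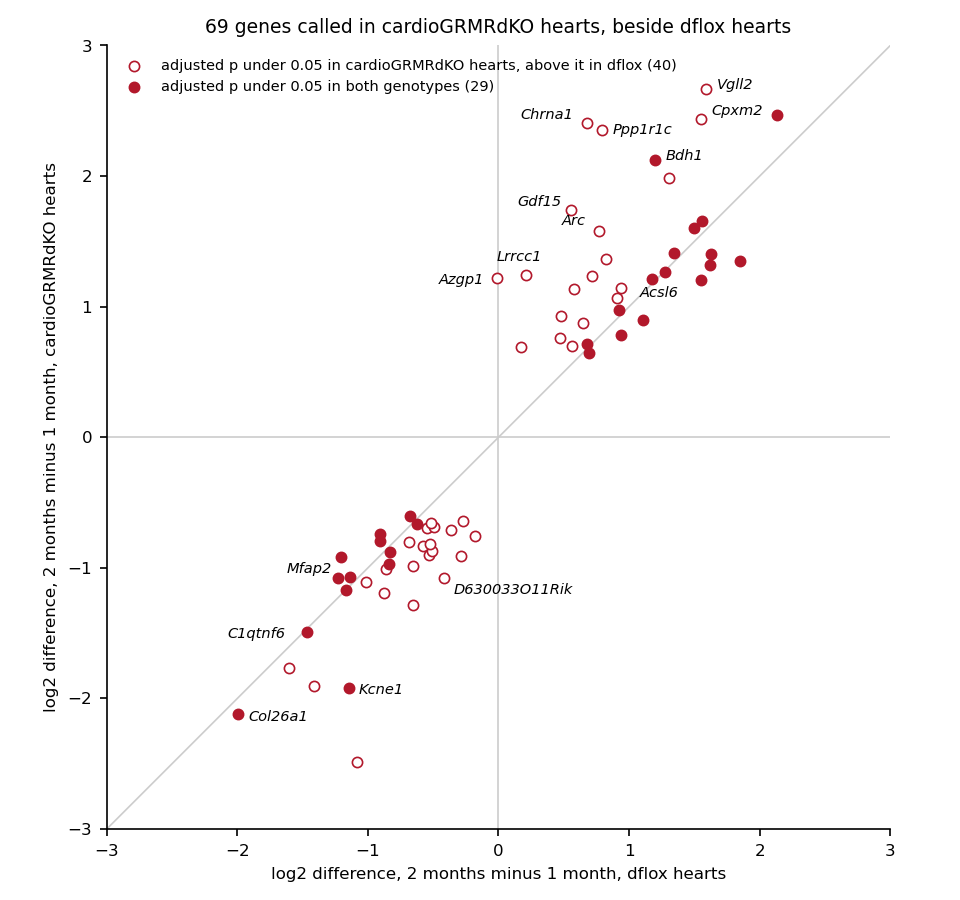
Log2 age difference (2 months minus 1 month) of the 69 genes called in cardioGRMRdKO hearts, on the y axis, against the same difference in dflox hearts, on the x axis. Filled points are the 29 genes called in both genotypes, open points the 40 not past the threshold in dflox hearts, and the diagonal marks equal differences. All points but Azgp1 (1.22 against −0.01) lie on the same side of 0 in both genotypes.

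The same age comparison in dflox hearts uses other arrays and the same estimate of spread, and its ages are not balanced over the slides. It called 101 genes (0.553%), 56 higher and 45 lower, a split that became 64 and 85 with quantile normalization and 33 and 81 with median centring. With slide as a fixed term it called 10. Leaving out dflox 1-month replicate 1 or 3 gave 3 or 18 calls, leaving out dflox 2-month replicate 1, 2 or 3 gave 66, 11 or 17, and leaving out knockout 1-month replicate 3 gave 55. Of the 69 genes called in knockout hearts, 68 had the same sign in dflox hearts, compared with 63.3% of all genes. Of them, 29 were called in both in the same direction, which is 42.0% of the knockout calls and 28.7% of the dflox calls, and 0 were called in opposite directions. The shared calls were 16 rises and 13 falls and included Col26a1, Kcne1, Loxl2, Col1a1, Mfap2, Fstl1, Igf2, Acsl6, Bdh1, H2-Aa and H2-DMb1. Mfap2 fell by 1.14 in dflox hearts and Acsl6 rose by 1.27 there (adjusted p = 0.0034 for both).

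The difference between the age changes was tested directly as an interaction. It called 0 of 18258 genes (0.0%) with limma, with 644 genes (3.53%) at an unadjusted p under 0.05 and a smallest adjusted p of 0.934. A p that misses the threshold does not show that the genotypes changed alike. Of the 69 genes, 55 had a larger difference in knockout than in dflox hearts, but they were chosen for their size in knockout hearts, so this count is a description. For Gdf15 the difference was 1.74 in knockout and 0.56 in dflox hearts, where it went from −2.10, −1.74 and −1.99 to −1.52, −1.13 and −1.50 (interaction 1.18, SE 0.274, adjusted p = 0.934). Kcne1 differed by −1.92 and −1.15 (interaction −0.77, SE 0.293, adjusted p = 0.934), and Bdh1 by 2.12 and 1.20 (interaction 0.93, SE 0.256, adjusted p = 0.934).

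Other genes were called in dflox hearts and not in knockout hearts. Myh7 rose in dflox hearts, from 3.57, 3.76 and 3.62 to 4.63, 4.92 and 4.49 (1.03, SE 0.178, adjusted p = 0.0396), while all 6 knockout hearts lay between 7.05 and 7.73. Casq1, the calcium-binding protein of the skeletal type reticulum, fell in dflox hearts from 0.31, 0.27 and −0.12 to −1.25, −1.03 and −1.33 (−1.36, SE 0.205, adjusted p = 0.0241) and stayed between 1.82 and 2.60 in knockout hearts. The interaction was −0.85 (SE 0.252) for Myh7 and 1.28 (SE 0.291) for Casq1, and neither passed the test (adjusted p = 0.934 for both). In the matrix list the medians were −0.45 in knockout and −0.67 in dflox hearts, with 4 and 11 called falls. In the mitosis list they were −0.89 and −1.17, with 0 and 4 called falls, and in antigen presentation 0.39 and 0.35, with 2 and 3 called rises.

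Some arrays of both genotypes stood apart in markers of tissue around the heart. In knockout hearts airway epithelium markers were above 0 in 15 of 15 tested genes, with a median of 2.85 and 0 calls. Their mean level was −1.52, −2.36 and −2.75 at 1 month and 1.92, −2.83 and 1.91 at 2 months. Knockout 2-month replicates 1 and 3 were thus high and replicate 2 was as low as the 1-month hearts, as for Scgb1a1, a club cell secretory protein, at 5.09 and 5.09 against −1.34. In dflox hearts the airway markers went the other way, with 0 of 15 above 0 and a median of −2.42. Their mean level there was 0.87, 1.95 and 1.89 at 1 month and −1.18, −2.67 and 2.24 at 2 months. The median difference between the age changes was 5.70. Cartilage markers were above 0 in 7 of 11 genes in knockout hearts (median 0.25) and in 0 of 11 in dflox hearts (median −1.10). In slide 3, whose knockout arrays were both low in airway markers (−1.52 and −2.83), the median size of the 69 genes was 1.11, their sign being fixed by the choice of genes. With the mean airway level as a covariate, an alternative added after seeing the data, all 69 kept their direction with a median size of 1.12 against 1.08. The adjusted p of these genes then ranged from 0.0268 to 0.192, and 6 of the 69 stayed called (Mfap2, Sost, Lrrcc1, Acsl6, Gdf15 and Bdh1) among 8 calls in all. The 69 genes were chosen on these same arrays, so their direction and size in slide 3 and with the covariate are a description. The part of airway tissue in the calls was not tested. A further Sost probe, above background in all 6 hearts, gave 0.07 against 1.13 for the probe used.

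Adipocyte and brown fat markers were low in the knockout arrays of slide 3, at −0.45 in 1-month replicate 1 and −0.06 in 2-month replicate 2, against 1.88 to 2.40 in the other 4. Their age difference was above 0 in 6 of 11 genes in knockout hearts and in 0 of 11 in dflox hearts (medians 0.25 and −0.46). Atrial markers were lowest in 1-month replicate 1 (1.07) and 2-month replicate 3 (1.58), against 1.74 to 1.92 in the rest. Cardiomyocyte markers had 3 of 8 members above 0 and a median of −0.05, and their mean level was lowest in 2-month replicate 3, at 6.53 against 6.72 or more in the others. Endothelial markers had a median of −0.07 and smooth muscle and pericyte markers −0.11, both with 0 calls. The part of atrial tissue, fat and cartilage in the calls was not tested.

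**Figure D5:**
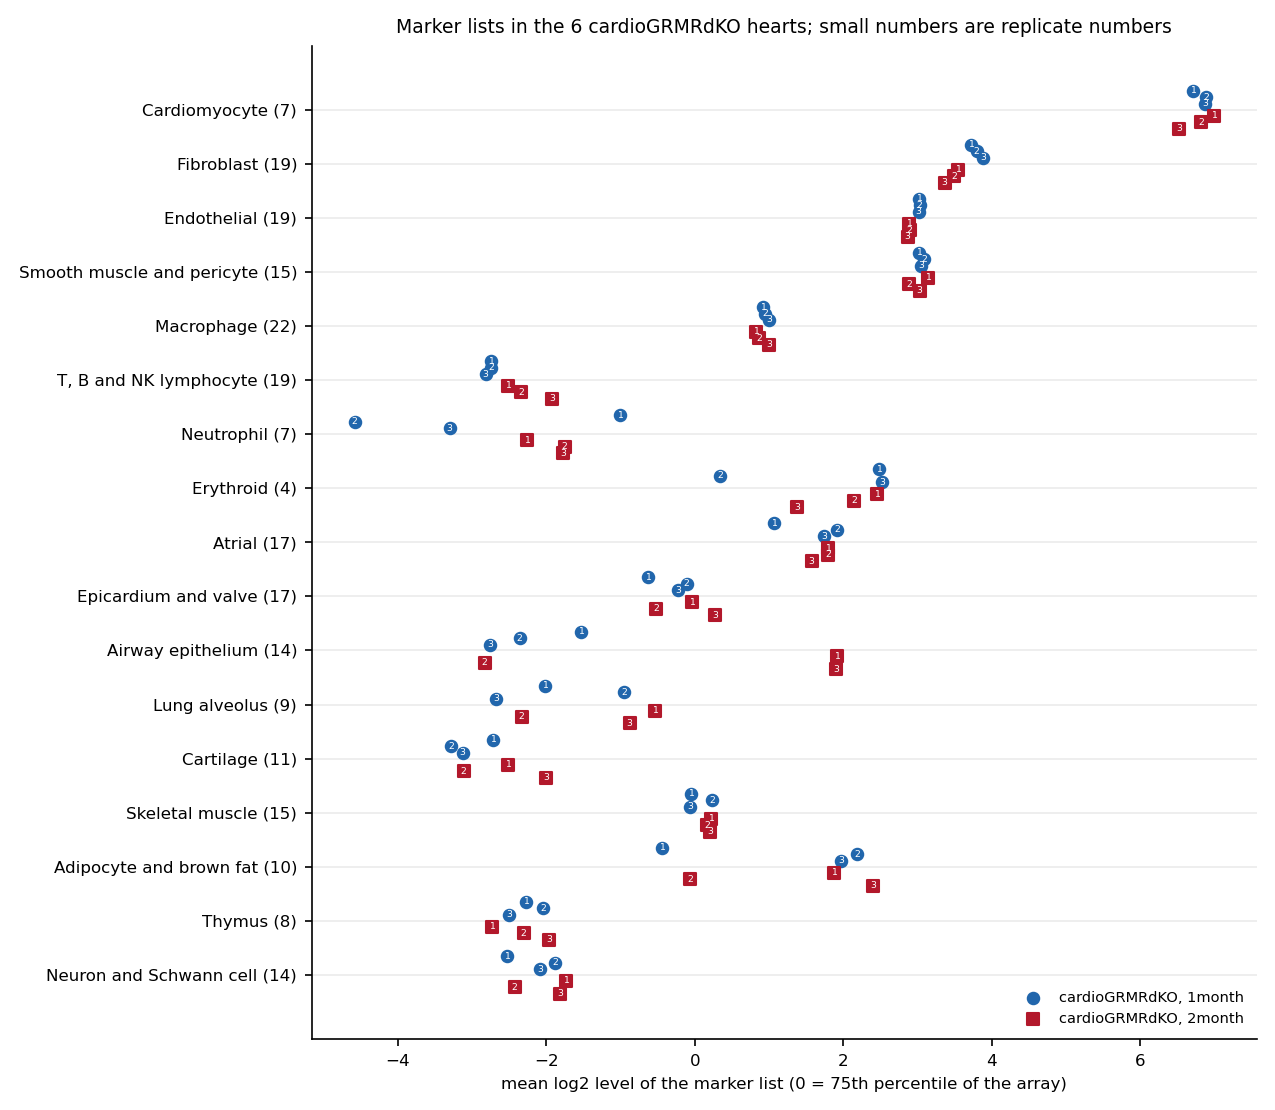
Mean log2 level of each marker list in the 6 cardioGRMRdKO hearts (circles, 1 month; squares, 2 months; the digit in each symbol is the replicate number), over list members with a value on all 12 arrays, whose number is in brackets. Airway epithelium markers are high in 2-month replicates 1 and 3 (1.92 and 1.91) and low in the other 4 hearts, and adipocyte markers are low in 1-month replicate 1 and 2-month replicate 2.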

How the data were processed

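Total RNA (500 ng per the labels) was labelled with Cy3 and hybridised to Agilent whole mouse genome arrays, 1 heart per array. The authors read them with Agilent Feature Extraction (9.5 per the submitters' processing notes, 9.5.3.1 per the file headers). The value used from the deposited files is the processed signal, a linear intensity from which the software had already subtracted background, per the file headers. These headers also give probe positions on mm7, whose exon and UTR annotation was not used here.

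Control and outlier-marked spots were left out (67 to 241 outliers per array, 0 saturated). Log2 intensity minus the array's 75th percentile was averaged per probe. Of 41174 probes, 26985 passed a filter (above background in every usable heart, 2 or 3, of some group), and the brightest probe over all 12 arrays of each of 18258 genes was kept, of which 17776 had values on all arrays. Probes took names through RefSeq accession (22951), another accession (131), a current (6582) or older symbol (3073), or kept the name in the file (8437). limma 3.58.1 (R 4.3.3; the package data.table in version 1.17.8) fitted 4 group means to 12 arrays (prior degrees of freedom 2.22, residual 8), and the fit was tested on simulated data. An exact permutation test of 3 against 3 hearts cannot give a p under 0.10. Named genes were the 15 largest called rises and falls with a symbol, detected in every heart of the brighter age and not overlapping, a set of 20 heart, receptor and growth genes, and up to 6 called or else 3 lowest-p members of each list. Class II genes beyond that rule, Emilin2, Cdk6, Pycard, Hacd1, Azgp1, Sost, Igh-1a, Klra10, Gpr171, S1pr5 and Scgb1a1 were chosen after their values were seen. Members, lists and rules were chosen with earlier results of these data known. "At least" folds set the brighter mean against the lowest signal well above background on each dim array. Alternatives changed background correction, scaling, filter, probes per gene, slide, replicate block, variance model and arrays; the airway covariate was added after seeing the data.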

Additional observations from a re-analysis of the deposited data

How the results depend on the processing

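The 69 calls between ages in knockout hearts became 34 with normexp, 29 with median centring, 13 with no filter on dim probes, 8 with the airway covariate and 0 with the 6 knockout arrays alone, where 1968 genes had an unadjusted p under 0.05 and limma's smallest adjusted p was 0.099. The count lay within 1.5 times of 69 with quantile normalization (68), outlier spots kept (64), the mean of probes (69), all 12 arrays above background (77), slide as a fixed term (46, of which 37 among the 69) or random block (83) and a variance trend (89). Leaving out single hearts gave 4 to 62 calls. In dflox hearts the 101 calls became 55, 17, 15 and 0 (2412 unadjusted) with normexp, no filter, the airway covariate and the dflox arrays alone, 10 with slide as a fixed term, 174 when above background on all 12 arrays and 213 with a variance trend, and 3 to 147 without single hearts. The interaction called 0 genes in each of 24 alternatives (430 to 1441 unadjusted). No named gene reversed a called direction under the alternatives other than leaving out a heart, and over all named genes and alternatives a call was lost 350 times and gained 8 times. Only 3 hearts per group and signal near background limit dim genes such as Vgll2, Ppp1r1c, Chrna1 and Mirg.

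Replicate numbers do not pair the samples: deviations of same-numbered knockout hearts of the 2 ages correlated at −0.303 to 0.133, those on the same slide at 0.242 to 0.445. With the replicate block, 31 genes were called in knockout hearts (18 higher and 13 lower, 25 of them among the 69), 75 in dflox hearts and 0 for the interaction (680 unadjusted).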
